A study of Mus musculus with 28 samples.

Results

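The genes described here carry glucose into the cell and break it down: glucose transporters, the enzymes of glycolysis and of the pentose phosphate pathway, lactate dehydrogenases and lactate transporters, the pyruvate dehydrogenase subunits and their kinases, the regulators Pfkfb3 and Tigar, and the hypoxia factor Hif1a. They were taken from a list of 35 genes, and each was read from its brightest probe set annotated to a single gene, which left 31 of the 35 among 18193 genes measured in all. Gpi1, Eno1 and G6pdx had no probe set under their symbols in the annotation used, and every probe set listed for Gapdh was shared with pseudogenes, so these 4 genes were not analysed here by a probe set of their own. The study compared untreated and Adriamycin-treated cultures of 14 mouse B-cell lymphomas on 28 expression arrays, 14 per group. All 28 cultures held lymphoma cells taken from lymph nodes of C57BL/6 mice with the Emu-myc transgene, whose Emu enhancer drives Myc in B cells. All had been transduced with a Bcl2 retrovirus (MSCVpuro), which blocks apoptosis, selected in puromycin, and grown on gamma-irradiated NIH 3T3 mouse fibroblasts as feeder cells. The untreated group received no drug, and the ADR group received 0.05 µg/ml Adriamycin (doxorubicin, which breaks DNA by trapping topoisomerase II) in vitro for 5 days. Each lymphoma gave 1 array to each group and is named here by its identifier. The labels name no sort that parted lymphoma cells from feeder cells, so the RNA can come from both, and the age of the mice was not used here.

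Glucose enters cells through transporters of the Slc2a family and is trapped by hexokinases, split by the enzymes from phosphofructokinase to triosephosphate isomerase, and turned into pyruvate by the steps that end in pyruvate kinase. Pyruvate is either reduced to lactate and exported by Slc16a carriers or oxidised by pyruvate dehydrogenase, which the Pdk kinases switch off. The pentose phosphate pathway takes glucose 6-phosphate aside to make NADPH and ribose. Most steps have several isozymes, which differ between tissues. Fast-growing lymphocytes use glucose heavily, Myc and the hypoxia factor HIF-1 are known activators of many of these genes, and Tigar is a known p53 target. Expression is given on the log2 scale throughout, and a change is ADR minus untreated within a lymphoma, as a mean ± standard error (SE) over 14 pairs.

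The binding letters of these factors are a feature that the choice of genes did not use. The E-box CACGTG is bound by Myc and the letters ACGTG are the core of the hypoxia response element. Both were searched on both strands of the 250 bases before the first listed start of each gene (RefSeq promoters, GRCm38.p6), and every CACGTG also holds ACGTG on each strand. Of the 31 measured genes 30 had a promoter in the table, Slc2a3 being the exception. CACGTG was present in 5 of these 30 (16.7%), against 6.05% of 27025 promoters of the same length. ACGTG was present in 14 of 30 (46.7%), against 16.6% of all promoters. Shares among promoters of like base composition were not compared. By response to ADR, ACGTG was present in 2 of 7 genes that rose, 5 of 11 that fell and 7 of 12 that did not pass the test. Aldoc, Eno2, Pdk1, Pfkp and Pgd, which had the largest changes among the genes past the threshold, held neither motif. Tigar, Ldhb, Eno3, Pdha1, Tkt and Taldo1 held neither as well. Promoters are shown for the genes with the largest changes among those past the threshold that did hold a motif, Slc16a1, Hif1a, Pdk3 and Hk3. Ldha is added for its several matches, which were seen before it was chosen. Capitals mark each E-box and each hypoxia core, the latter as its reverse complement where the match is on the other strand. The start is the base after the last letter.
Slc16a1 (chr3:104638414-104638663, plus strand): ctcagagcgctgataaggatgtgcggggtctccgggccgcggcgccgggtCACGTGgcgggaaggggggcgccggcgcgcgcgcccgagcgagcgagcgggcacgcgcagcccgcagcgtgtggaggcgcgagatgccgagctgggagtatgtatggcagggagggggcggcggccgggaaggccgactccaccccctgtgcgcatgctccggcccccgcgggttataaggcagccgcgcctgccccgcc
Hif1a (chr12:73907617-73907866, plus strand): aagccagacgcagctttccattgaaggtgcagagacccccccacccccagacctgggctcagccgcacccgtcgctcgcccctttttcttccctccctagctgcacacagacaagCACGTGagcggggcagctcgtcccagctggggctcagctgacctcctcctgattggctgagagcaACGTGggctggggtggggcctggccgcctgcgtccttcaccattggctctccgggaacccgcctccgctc
Pdk3 (chrX:93832151-93832400, minus strand): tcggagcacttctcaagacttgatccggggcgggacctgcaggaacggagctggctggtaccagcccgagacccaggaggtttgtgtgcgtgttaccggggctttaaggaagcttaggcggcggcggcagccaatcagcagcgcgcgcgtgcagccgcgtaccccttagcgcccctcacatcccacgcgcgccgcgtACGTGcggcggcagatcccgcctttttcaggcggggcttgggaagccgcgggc
Hk3 (chr13:55021386-55021635, minus strand): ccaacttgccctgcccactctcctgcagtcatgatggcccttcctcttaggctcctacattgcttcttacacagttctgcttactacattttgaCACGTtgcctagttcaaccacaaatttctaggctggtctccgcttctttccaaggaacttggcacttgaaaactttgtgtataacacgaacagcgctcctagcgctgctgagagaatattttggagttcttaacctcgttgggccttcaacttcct
Ldha (chr7:46845554-46845803, plus strand): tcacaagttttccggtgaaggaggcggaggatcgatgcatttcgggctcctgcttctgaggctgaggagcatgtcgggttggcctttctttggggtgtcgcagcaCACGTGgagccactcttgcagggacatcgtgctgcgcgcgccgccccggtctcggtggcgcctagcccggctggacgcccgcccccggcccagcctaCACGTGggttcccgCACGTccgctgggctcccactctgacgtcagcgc
The E-box of Slc16a1 began 200 bases before the start and that of Hif1a 135 bases before it. Ldha held 2 E-boxes, which began 145 and 48 bases before the start. These matches are letters in a window and not measured binding sites.

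Cultures and arrays differed in ways that bear on the values below. Col1a2, a type I collagen gene of fibroblasts used here to follow the feeder cells, lay between 4.86 and 7.49 (median 5.54) in untreated arrays and between 5.93 and 11.72 (median 8.996) in ADR arrays. Its change ranged from 0.38 in lymphoma 1467 to 6.31 in lymphoma 403, with 6.04 in lymphoma 5560 and a median of 2.92, and it correlated with the mean change of 19 fibroblast markers at r = 0.99 across the 14 lymphomas, Col1a2 being one of the 19. Of those markers 17 rose, and their summed level was 86.8 to 101.5 in untreated and 91.6 to 165.3 in ADR arrays. Of 14 macrophage markers 10 rose, with sums of 72.6 to 121.1 and 88.0 to 135.1. Of 9 B cell markers 4 fell and 0 rose, and all 9 proliferation markers fell. None of 7 T and NK cell markers passed the test. The ADR array of lymphoma 1570 stood apart in RNA quality, since the 3' minus 5' signal of the array's Gapdh control probe sets was 0.92 there, against 0.38 in the next highest array, the ADR array of 6054. Without lymphoma 1570, 8 of the glucose genes were higher and 11 lower after ADR, against 7 and 11 with it. The shares of all genes called without 1570 were not counted. In bulk arrays, fewer cells of a type and less RNA per cell cannot be told apart.

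After ADR, 7 of the 31 genes rose and 11 fell in the paired limma fit (adjusted p under 0.05 over all genes). Among all 18193 genes 15.3% were higher and 13.4% lower, or 28.7% in either direction. The share that rose (22.6%) and the share that fell (35.5%) were both above these backgrounds, and the median change was -0.20, against -0.00 over all genes. By group means, 1 of the 31 genes lay below the median of all values (4.74) in both groups, against 6449 of all 18193. The backgrounds thus hold relatively more dim genes, and shares at like brightness were not compared. Risers were the hexokinase Hk3, the regulator Tigar, the enolase Eno2, the lactate dehydrogenase Ldhb, Pgd and Taldo1 of the pentose phosphate pathway, and Hif1a. Fallers were Pfkp, Aldoc, Pgk1, Eno3, Ldha, Slc16a1, Pdha1, Pdhb, Pdk1, Pdk3 and Tkt. Pfkp, Aldoc, Pdha1 and Pdk1 were lower in 14 of 14 lymphomas, as were 2.59% of all genes. None of the 31 was higher in all 14, against 2.87% of all genes. The untreated and ADR ranges overlapped for all 31 genes, whereas 0.0605% of all genes had every ADR array above every untreated one and 0.192% every ADR array below.

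**Figure D1:**
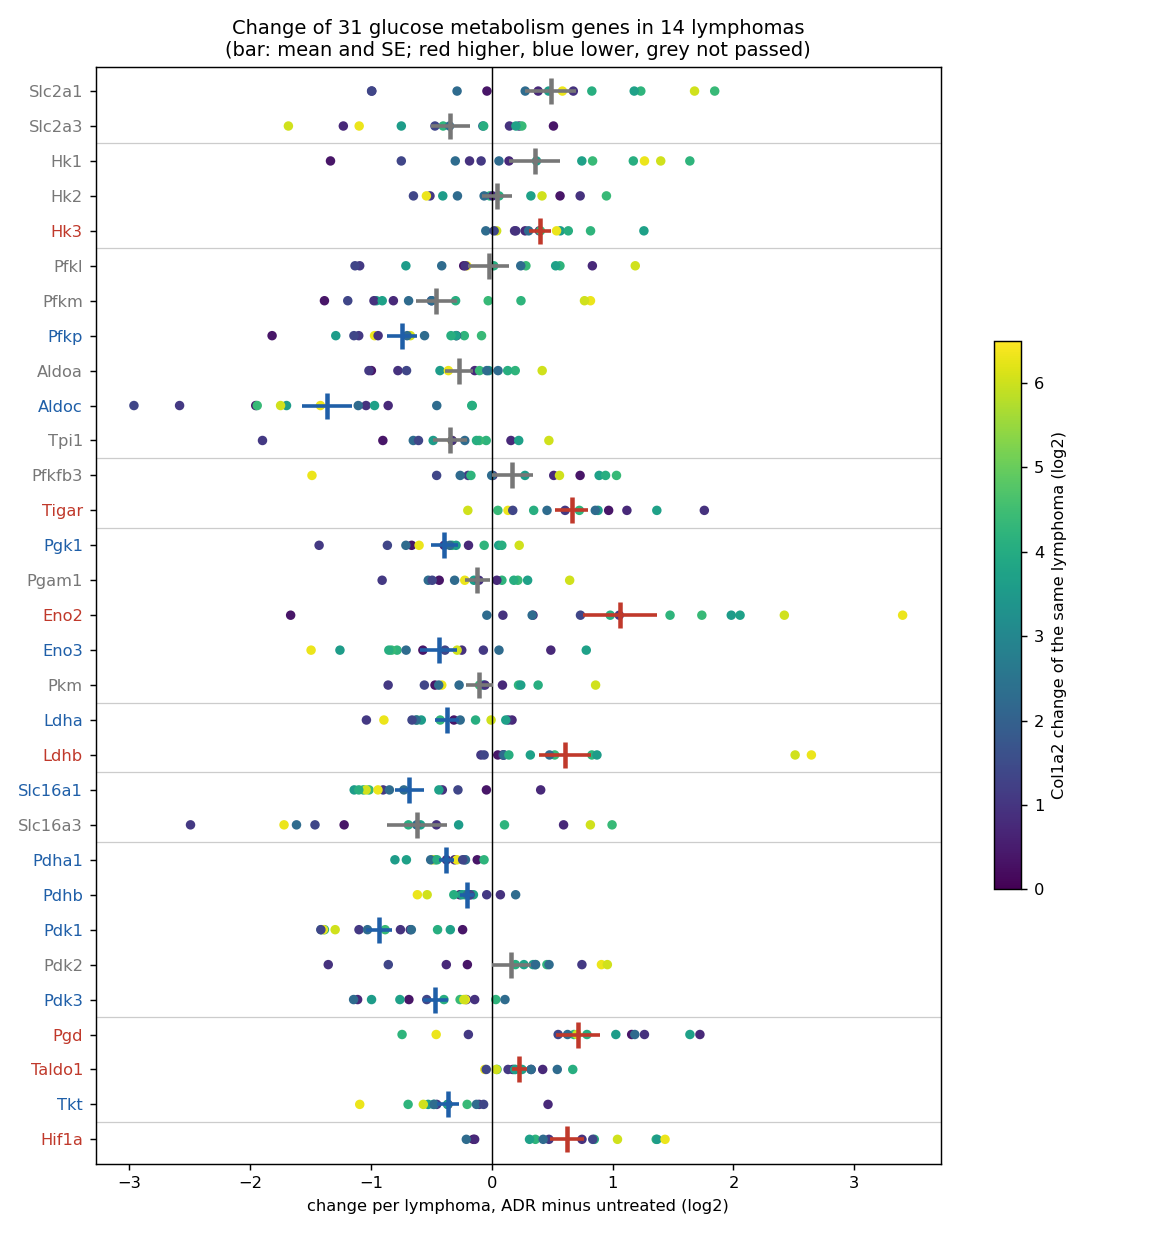
Change of each of the 31 measured genes (rows, ordered by role) in each of 14 lymphomas (points), ADR minus untreated on the log2 scale, coloured by the Col1a2 change of the same lymphoma, with the mean and SE as a bar. The 7 genes that rose are red, the 11 that fell blue and the 13 that did not pass the test grey; the points of Aldoc, Pfkp, Pdha1 and Pdk1 all lie left of 0.

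Neither glucose transporter passed the test. Slc2a1, the transporter found in most dividing cells, lay at 9.04 to 12.11 (median 10.32) in untreated and 9.21 to 12.53 (median 11.01) in ADR arrays. Its change was 0.49 ± 0.21 (adjusted p = 0.101, higher in 10 of 14), with a 95% interval of 0.04 to 0.94, and the ranges overlapped widely. Without lymphoma 1570 or without 9584, the lymphomas with changes near -0.99, the call was gained (smallest adjusted p = 0.0338). Slc2a3, a high-affinity transporter, lay at 8.12 to 11.67 (median 9.77) and 7.47 to 10.85 (median 9.54), with a change of -0.34 ± 0.16 (adjusted p = 0.130). The 2 dimmest of its 4 probe sets did pass a fit over single probe sets, with changes of -0.79 and -0.69 (adjusted p = 0.0139 and 0.0125), where 26.7% of 34945 probe sets were called. Read as the mean of all its probe sets, Slc2a3 also passed the paired limma test, at -0.55 ± 0.15 (adjusted p = 0.0143). Within lymphomas Slc2a1 changed by 0.83 ± 0.32 more than Slc2a3 (exact sign-flip permutation test, 2-sided, adjusted p = 0.0342 over 10 pairs of related genes, 10 of 14 lymphomas). That difference held when 1467, 1570, 5043, 6054 or 9584 was left out and missed the threshold without any one of the other lymphomas (adjusted p up to 0.0643).

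Hexokinases commit glucose to the cell. Hk3, an isozyme of myeloid and other blood cells, was the one that rose. It lay at 5.72 to 6.92 (median 6.24) in untreated and 6.12 to 7.55 (median 6.83) in ADR arrays, and 6 ADR arrays were above every untreated array. Its change was 0.40 ± 0.09 (adjusted p = 0.00345, higher in 13 of 14). A dimmer Hk3 probe set rose by 0.75 ± 0.15. Macrophage markers rose in the same arrays. The correlation of the Hk3 change with the macrophage marker change was 0.30 across 14 lymphomas (rho = 0.16). The limma slope of the Hk3 change on it was 0.14 ± 0.12 (adjusted p = 0.968). The part of macrophages in the Hk3 rise was not tested. Hk1, the isozyme present in most tissues, lay at 7.05 to 9.52 (median 8.42) and 7.45 to 9.59 (median 8.82) and changed by 0.36 ± 0.21 (adjusted p = 0.245, higher in 9 of 14). Its changes ran from -1.33 in lymphoma 1467 to 1.64 in 2581. Hk2, the inducible isozyme that Myc and HIF-1 activate, changed by 0.04 ± 0.13 (95% interval -0.22 to 0.31, higher in 7 of 14), with levels of 8.63 to 10.77 (median 9.46) in untreated and 8.72 to 10.95 (median 9.61) in ADR arrays. The Hk1 change minus the Hk2 change was 0.31 ± 0.26 (exact adjusted p = 0.280) and the Hk2 change minus the Hk3 change -0.36 ± 0.15 (exact adjusted p = 0.0555). The latter passed the threshold with the probe sets of largest variance (-0.71, adjusted p = 0.0199), with the mean of all probe sets (-0.53, adjusted p = 0.0235) and without any one of 1467, 3594, 5043 and 5560 (adjusted p down to 0.0347).

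Upper glycolysis holds the phosphofructokinase step, which limits the flow, and the cleavage of the sugar by aldolase. Aldoc, the aldolase isozyme best known from brain and induced by hypoxia, had the largest change of the 31 genes. It lay at 7.29 to 11.15 (median 9.57) in untreated and 5.76 to 9.73 (median 7.78) in ADR arrays, and 6 ADR arrays lay below every untreated array. It fell by 1.36 ± 0.21 (0.389-fold, adjusted p = 1.42e-04), with changes from -2.96 in lymphoma 9584 to -0.16 in 2581. Its dimmer probe set fell by 0.44 ± 0.13. Aldoa, the isozyme of muscle and of most dividing cells, lay at 12.06 to 13.51 (median 12.91) and 11.76 to 13.20 (median 12.62) and did not pass the test, at -0.27 ± 0.11 (adjusted p = 0.0929, lower in 10 of 14). Aldoa passed it only without lymphoma 5560 (adjusted p = 0.0442). Within lymphomas the Aldoa change was above the Aldoc change in 14 of 14, by 1.09 ± 0.18 (exact sign-flip permutation p = 1.22e-04, the smallest that 16384 sign flips can give, adjusted p = 6.10e-04).

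Pfkp, the platelet-type phosphofructokinase subunit, fell by 0.74 ± 0.12 (adjusted p = 2.93e-04), with levels of 9.37 to 12.20 (median 10.74) in untreated and 8.57 to 11.91 (median 9.79) in ADR arrays, and 5 ADR arrays lay below every untreated array. All 3 of its probe sets fell. Pfkm, the muscle-type subunit, lay at 7.35 to 8.91 (median 8.04) and 6.91 to 8.55 (median 7.59) and changed by -0.46 ± 0.17 (adjusted p = 0.0540, lower in 11 of 14). It passed the threshold with lymphoma as a random block (adjusted p = 0.0273), with dim genes left out (0.0397), with arrays centred on their median (0.0444) and without any one of lymphomas 2581, 403 and 5560, at an adjusted p down to 0.0140. Pfkl, the liver-type subunit, changed by -0.02 ± 0.17 (95% interval -0.38 to 0.33, higher in 7 of 14). The Pfkl change was above the Pfkp change in 14 of 14 lymphomas, by 0.72 ± 0.15 (exact p = 1.22e-04, adjusted p = 6.10e-04), while Pfkl minus Pfkm was 0.43 ± 0.19 (exact adjusted p = 0.0555, and 0.0362 without lymphoma 1570 and 0.0137 without 403). The last enzyme of this stretch, the isomerase Tpi1, lay at 11.48 to 12.64 (median 12.49) and 10.70 to 12.74 (median 11.94) and changed by -0.35 ± 0.14 (adjusted p = 0.0875, lower in 11 of 14). It passed only without lymphoma 5560 (adjusted p = 0.0453), and its lowest change, -1.90, was in lymphoma 1570.

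Tigar and Pfkfb3 are among the enzymes that act on the level of fructose 2,6-bisphosphate, which activates phosphofructokinase. Tigar, which removes it and is known to send glucose towards the pentose phosphate pathway, rose by 0.66 ± 0.14 (adjusted p = 0.00164, higher in 13 of 14). It lay at 4.67 to 6.47 (median 5.99) in untreated and 5.79 to 6.89 (median 6.42) in ADR arrays, with 6 ADR arrays above every untreated array. The rise was seen in the brightest of 3 probe sets only. The other probe sets changed by -0.07 ± 0.15 and -0.18 ± 0.13, and the mean of all of them by 0.14 (adjusted p = 0.467). Pfkfb3, which makes the activator, changed by 0.17 ± 0.17 (95% interval -0.19 to 0.53), with changes from -1.49 in lymphoma 403 to 1.03 in 3594.

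Lower glycolysis held genes that fell and a single one that rose. Pgk1, the kinase that makes the first ATP of the pathway, fell by 0.39 ± 0.11 (adjusted p = 0.0137, lower in 11 of 14), and all 3 of its probe sets fell. The Pgk1 call was lost within the 11 lymphomas of an earlier series (adjusted p = 0.0874). Its levels were 12.54 to 13.60 (median 13.38) in untreated and 11.64 to 13.65 (median 12.91) in ADR arrays. Eno3, the muscle enolase, fell by 0.44 ± 0.16 (adjusted p = 0.0444), with levels of 7.27 to 10.10 (median 7.99) in untreated and 7.16 to 8.60 (median 7.49) in ADR arrays. The call was lost with lymphoma as a random block (adjusted p = 0.0742), with quantile normalization (0.0512), without both 403 and 5560 (0.112), within the same 11 (0.119) and without any one of lymphomas 1467, 2581, 3594, 3769, 403, 5043, 5560, 7050, 9583 and 9584, with an adjusted p up to 0.0940. Eno2, the neuronal enolase, rose by 1.06 ± 0.31 (adjusted p = 0.0152, higher in 12 of 14). It was dim in untreated arrays, at 3.50 to 6.77 (median 4.63), where its mean was below the median of all values (4.74), and reached 4.51 to 7.97 (median 5.27) after ADR. The Eno2 changes ran from -1.66 in lymphoma 1467 to 3.40 in 403, and without 403 and 5560 the change was 0.76 (adjusted p = 0.0548). Pgam1 and Pkm, the mutase and the pyruvate kinase, changed by -0.12 ± 0.10 and -0.10 ± 0.11 and did not pass the test. Gapdh was followed by the array's control probe sets alone. The 3' control probe set lay at 13.23 to 13.76 in untreated and 12.82 to 13.81 in ADR arrays. It changed by -0.08 ± 0.08 (exact sign-flip permutation test, p = 0.315). Without lymphoma 1570 the change was -0.04 (exact p = 0.603). The 5' and middle control probe sets changed by -0.18 ± 0.13 and -0.13 ± 0.11 (exact p = 0.198 and 0.253).

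**Figure D2:**
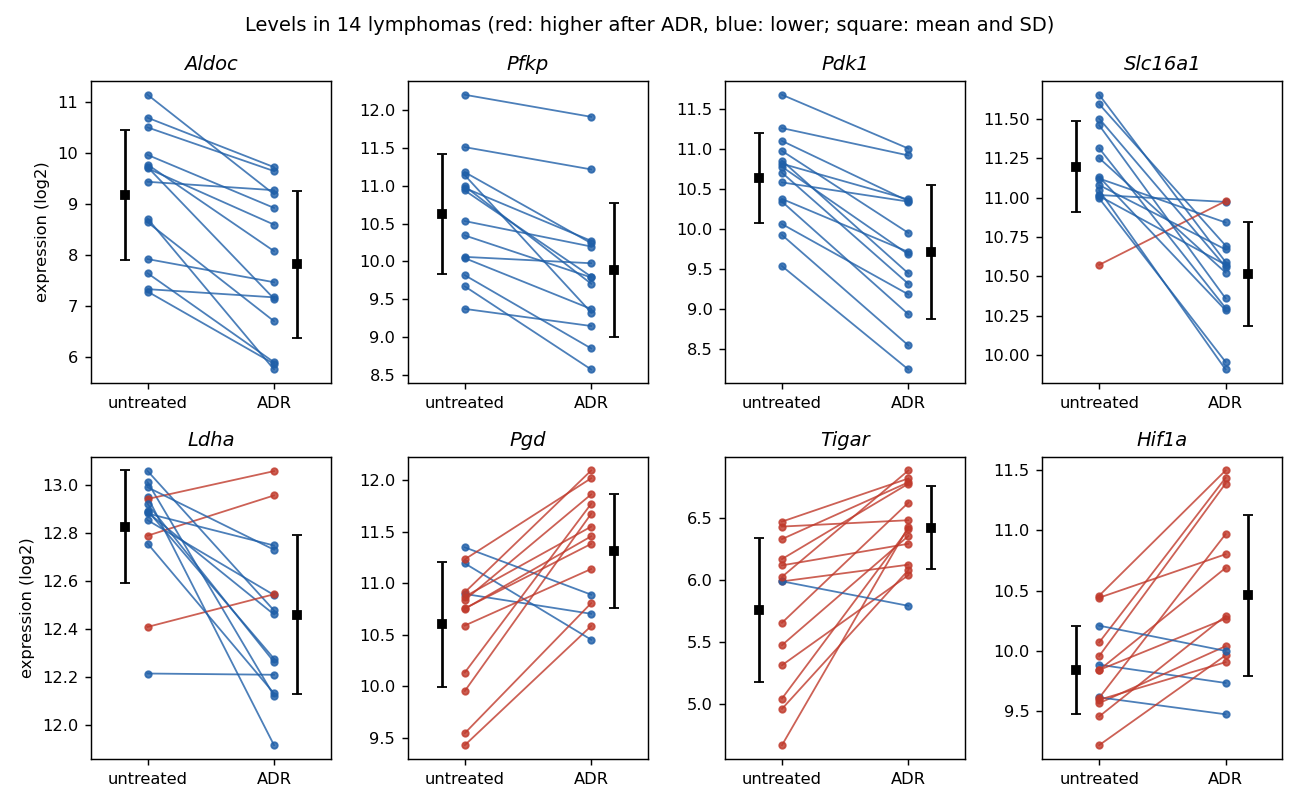
Log2 expression of 8 genes in untreated and ADR arrays, with a line joining the 2 arrays of each lymphoma (red where ADR was higher, blue where it was lower) and the mean and SD as a square. Every line of Aldoc, Pfkp and Pdk1 runs down, while 11 of 14 lines of Pgd and of Hif1a and 13 of 14 of Tigar run up.

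The lactate dehydrogenases moved apart. Ldha, the subunit that favours lactate formation and whose promoter held 2 E-boxes, fell by 0.37 ± 0.10 (adjusted p = 0.0111, lower in 11 of 14). Its levels were 12.21 to 13.06 (median 12.89) in untreated and 11.91 to 13.06 (median 12.47) in ADR arrays, and the array of lymphoma 1570 gave the largest fall, -1.04. Ldhb, the subunit that favours pyruvate formation, rose by 0.61 ± 0.22 (adjusted p = 0.0466, higher in 12 of 14). It lay in a narrow range of 5.90 to 6.60 (median 6.28) in untreated arrays and spread to 5.99 to 8.86 (median 6.48) after ADR. Lymphomas 403 and 5560, with rises of 2.64 and 2.51, stood well above the next, at 0.87 in 3769. The call was lost within the 11 earlier-series lymphomas (adjusted p = 0.0568) and without any one of lymphomas 2581, 3594, 3769, 403, 5560, 5766, 6054, 7050 and 9583 (adjusted p up to 0.0812). All 3 dimmer Ldhb probe sets rose, by 0.99 to 1.64. Within lymphomas the Ldha change was below the Ldhb change in 12 of 14, by -0.97 ± 0.27 (exact adjusted p = 0.00163).

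Lactate leaves cells through monocarboxylate carriers. Slc16a1, the widely expressed carrier that Myc activates, fell by 0.68 ± 0.12 (adjusted p = 3.88e-04, lower in 13 of 14), with levels of 10.57 to 11.65 (median 11.13) in untreated and 9.91 to 10.98 (median 10.57) in ADR arrays. Its groups overlapped, with 7 ADR arrays below every untreated array, and lymphoma 2949, at 0.41, was the one with a higher value. Slc16a3, the carrier of highly glycolytic cells, spread over 4.19 to 8.68 (median 6.95) in untreated and 4.25 to 8.40 (median 6.08) in ADR arrays and changed by -0.62 ± 0.25 (adjusted p = 0.0786, lower in 10 of 14). It passed the threshold without any one of lymphomas 2949, 3594 and 5560, at an adjusted p down to 0.0334. The mean changes of the carriers differed by -0.06 ± 0.30 (exact adjusted p = 0.831, 7 of 14 lymphomas each way).

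Of 5 genes of pyruvate dehydrogenase and its kinases 4 fell (80%, against 13.4% of all genes) and none rose (against 15.3%). Pdk1, the kinase that HIF-1 induces and that shuts pyruvate out of the mitochondrial route, fell by 0.93 ± 0.11 (adjusted p = 1.40e-05), the smallest p of the 31 genes. Its levels were 9.53 to 11.68 (median 10.74) in untreated and 8.24 to 11.01 (median 9.69) in ADR arrays, 6 of which lay below every untreated array. The changes ran from -1.41 in lymphoma 9584 to -0.24 in 1467, and all 4 Pdk1 probe sets fell, with changes of -0.73 to -1.19. Pdk3, a kinase whose promoter held ACGTG once, fell by 0.47 ± 0.11 (adjusted p = 0.00312, lower in 12 of 14), with levels of 8.54 to 9.96 (median 9.14) in untreated and 8.13 to 9.28 (median 8.63) in ADR arrays. Pdk2 lay at 3.57 to 5.30 (median 4.01) and 3.94 to 4.81 (median 4.36), with means below the median of all values in both groups, and changed by 0.16 ± 0.16 (adjusted p = 0.517). Within the 11 lymphomas of the earlier series Pdk2 did pass the limma test, with a rise of 0.37 (adjusted p = 0.0363). The enzyme's own E1 subunits fell too. Pdha1 fell by 0.38 ± 0.06 (adjusted p = 2.42e-04), with levels of 10.27 to 11.03 (median 10.51) in untreated and 9.78 to 10.66 (median 10.17) in ADR arrays, and 9 ADR arrays lay below every untreated array. Pdhb fell by 0.20 ± 0.06 (adjusted p = 0.0177, lower in 12 of 14), with levels of 10.13 to 10.99 (median 10.28) in untreated and 9.74 to 10.51 (median 10.09) in ADR arrays. The Pdhb call was lost without both 403 and 5560 (adjusted p = 0.0701) and with its probe set of largest variance (adjusted p = 0.175). The Pdk1 change was below the Pdk2 change in 13 of 14 lymphomas, by -1.09 ± 0.23 (exact adjusted p = 0.00214), and below the Pdk3 change by -0.46 ± 0.17 (exact adjusted p = 0.0342, 10 of 14). The Pdk1 minus Pdk3 difference missed the threshold without any one of lymphomas 2581, 3594, 3769, 403, 5560, 9583 and 9584 (adjusted p up to 0.0643).

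**Figure D3:**
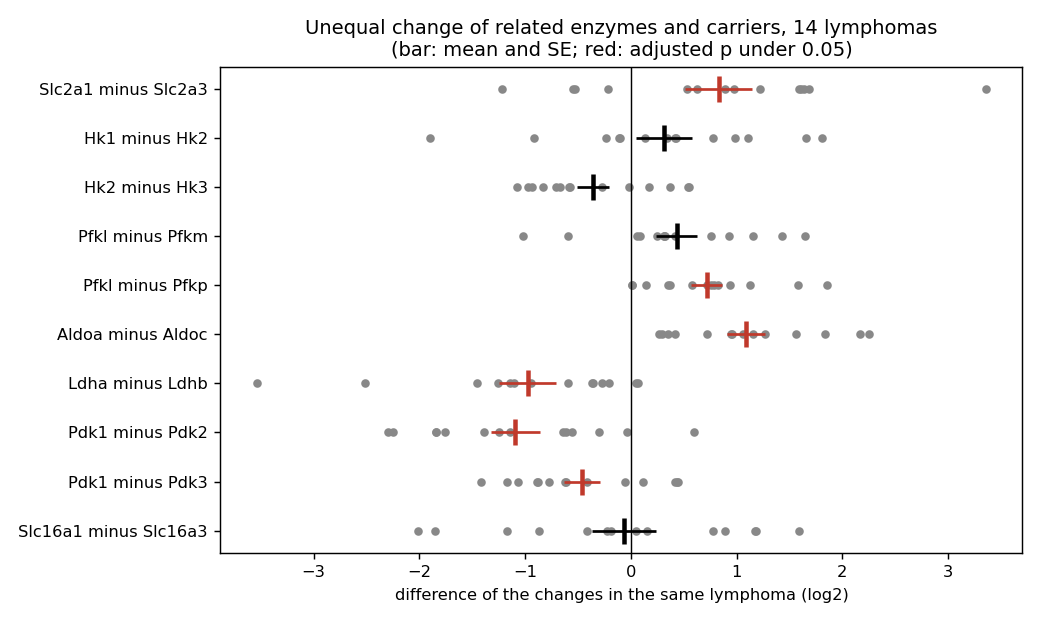
Difference between the changes of 2 related genes in the same lymphoma (points, log2) for the 10 pairs that could be tested, with mean and SE as a bar, red where the adjusted exact p was under 0.05. The points of Pfkl minus Pfkp and of Aldoa minus Aldoc lie right of 0 in 14 of 14 lymphomas, and 6 of 10 pairs changed unequally.

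The pentose phosphate pathway moved in both directions. Pgd, an enzyme of its NADPH-forming branch, rose by 0.71 ± 0.18 (adjusted p = 0.00735, higher in 11 of 14), and its 4 probe sets rose by 0.70 to 0.73. Its levels were 9.43 to 11.35 (median 10.80) in untreated and 10.45 to 12.10 (median 11.42) in ADR arrays, 8 of which were above every untreated array, while lymphomas 2581, 403 and 1570 were lower after ADR. Taldo1, the transaldolase of the reversible branch, rose by 0.23 ± 0.06 (adjusted p = 0.0100, higher in 12 of 14), with levels of 10.06 to 10.81 (median 10.54) in untreated and 10.36 to 11.06 (median 10.70) in ADR arrays. Tkt, the transketolase of the same branch, fell by 0.36 ± 0.09 (adjusted p = 0.00777, lower in 13 of 14), with levels of 12.13 to 13.31 (median 12.80) in untreated and 11.99 to 12.60 (median 12.46) in ADR arrays. The Tkt call was lost with the mean of all its probe sets (-0.19, adjusted p = 0.149). Of its other probe sets one fell by 0.43 ± 0.11 and the dimmest changed by 0.23 ± 0.11 (adjusted p = 0.139).

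Hif1a encodes the oxygen-regulated subunit of HIF-1, whose protein is controlled mostly after translation, so its RNA does not measure its activity. It rose by 0.62 ± 0.14 (adjusted p = 0.00324, higher in 11 of 14), with levels of 9.22 to 10.46 (median 9.84) in untreated and 9.47 to 11.50 (median 10.28) in ADR arrays, 6 of which were above every untreated array. Read from the probe set of largest variance, the change was 0.48 (adjusted p = 0.219). Known HIF target genes outside the 31 were counted for comparison: of 13 measured, 1 rose (7.69%) and 2 fell (15.4%), against 15.3% and 13.4% of all genes, with a median change of -0.22. On the Col1a2 change 6 of the 13 had a rising slope (46.2%, against 8.58% of all genes) and none a falling one. At no Col1a2 change the fit called 4 of the 13 lower, against 4.58% of all genes. The median there was -0.78, against 0.02 over all genes. Ndrg1 rose by 0.94 ± 0.26 (adjusted p = 0.0113, higher in 11 of 14), while Ankrd37 fell by 1.54 ± 0.30 (adjusted p = 9.49e-04, higher in 1 of 14) and Mxi1 fell by 0.27 ± 0.09 (adjusted p = 0.0367).

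The changes were then set against the Col1a2 change of the same lymphoma. The slope on it was called for 10 of the 31 genes: 8 changed upward with Col1a2 and 2 downward, against 8.58% and 8.27% of all genes (16.9% in either direction). Hk1, Pfkm, Eno2 and Ldhb followed it most closely. For Hk1 the correlation was r = 0.87 and rho = 0.85 over 14 lymphomas (permutation p = 9.00e-05 and 3.20e-04, adjusted over 18192 genes 0.00332 and 0.00882), and r = 0.85 without 403 and 5560, the 2 lymphomas farthest from the median Col1a2 change. Pfkm had r = 0.85 and rho = 0.82 (permutation p = 1.20e-04 and 4.10e-04, adjusted 0.00386 and 0.00994), and r = 0.68 without them. Eno2 had r = 0.85 and rho = 0.80 (permutation p = 1.50e-04 and 7.50e-04, adjusted 0.00433 and 0.0140), and r = 0.75 without them. Ldhb had r = 0.83 and rho = 0.85 (permutation p = 1.00e-04 and 1.70e-04, adjusted 0.00351 and 0.00638), and r = 0.72 without them. Within the 11 lymphomas of an earlier series these r were 0.86, 0.83, 0.86 and 0.82, and the other 3 were too few for a value. The slope calls of all 4 held without each single lymphoma, but without both 403 and 5560 those of Pfkm and Ldhb were lost (both adjusted p = 0.0671). All 4 genes thus ran higher where more Col1a2 appeared, in a mixed culture of lymphoma and feeder cells.

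The other rising slopes called by limma were those of Slc2a1, Aldoa, Pdk2 and Hif1a. By the permutation test of r and of rho, Slc2a1 (adjusted p = 0.0551 and 0.0578), Aldoa (0.0703 and 0.0961) and Hif1a (0.0741 and 0.124) missed the threshold, and Pdk2 passed on r alone (0.0455 and 0.0773). With the probe sets of largest variance Slc2a1 (adjusted p = 0.0707), Hif1a (0.2497) and Tkt (0.104) lost the slope call, and with the fibroblast marker change in place of Col1a2 Aldoa lost it (0.0573). Slc2a1 had r = 0.67 and lost its slope call without lymphoma 5560 (adjusted p = 0.0810), and Pdk2 had r = 0.68 and lost it without 403 or without 5560 (adjusted p = 0.0657 and 0.0738). Aldoa (r = 0.65) kept it only without 2949, 3769, 403, 6054 or 9583, and reached an adjusted p of 0.139 without 5560. Hif1a (r = 0.65) lost it without any one of 1467, 2949, 3594, 403, 5560, 6054 and 7050 (adjusted p up to 0.126). Slc16a1 and Tkt ran the other way, and both passed the permutation test (adjusted p = 0.0382 and 0.0371 for Slc16a1, 0.0344 and 0.0428 for Tkt). Slc16a1 had r = -0.70, and its falling slope was lost without 1467 or without 2949 (adjusted p = 0.0679 and 0.0506). Tkt had r = -0.69, lost without any one of 2581, 2949, 403, 5043 and 9584 (adjusted p up to 0.167). Tigar had r = -0.58 and rho = -0.67, with a slope that limma did not call (adjusted p = 0.0803). Its dimmer probe sets had falling slopes that were called, -0.23 and -0.18 (limma over single probe sets, adjusted p = 0.0145 and 0.0313). With lymphoma 5560 left out 4 genes had a rising slope call, against 8 over all 14 lymphomas. Pfkp, Aldoc, Ldha, Pdha1, Pdk1, Pdk3, Hk2 and Pfkfb3 had no called slope, with r between -0.40 and 0.39. Other genes without a called slope had a larger r, namely Pdhb (-0.68), Pgam1 (0.62), Pkm (0.54), Pgk1 (0.52) and Tpi1 (0.52). Pdhb passed the permutation test on r alone (adjusted p = 0.0402, and 0.205 for rho). The remaining genes had r between -0.47 (Slc2a3) and 0.42 (Pfkl). In untreated arrays, no slope of the 31 genes on the Col1a2 level was called by limma (3 at an unadjusted p under 0.05, and 6 genes, or 0.0330%, called of all 18193). On the macrophage marker change no slope of the 31 was called by limma either (0 at an unadjusted p under 0.05, and 17 genes, or 0.0934%, called of all).

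**Figure D4:**
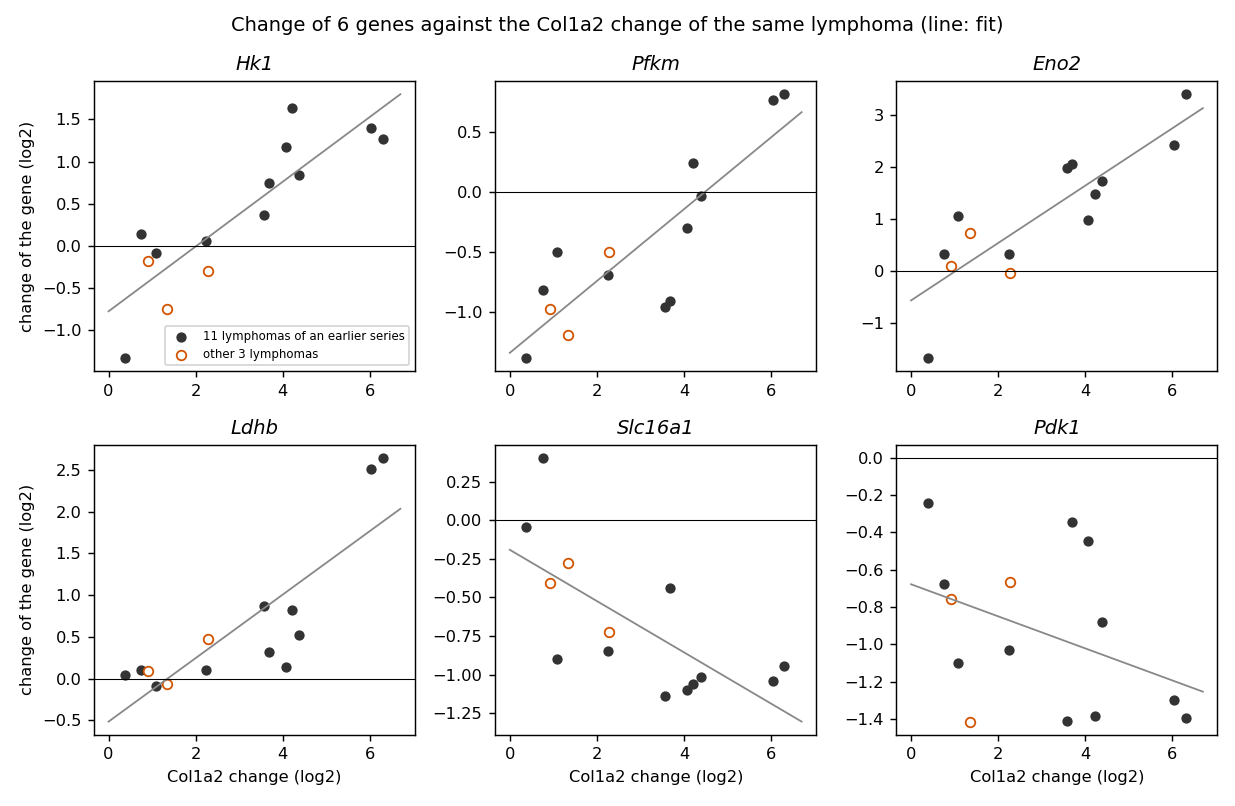
Change of 6 genes (log2, vertical) against the Col1a2 change of the same lymphoma (log2, horizontal), with the fitted line; filled points are 11 lymphomas of an earlier series and open points the other 3. Hk1, Pfkm, Eno2 and Ldhb rise along the axis, Slc16a1 falls, and Pdk1 lies below 0 at every Col1a2 change.

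The fitted value of each gene at no Col1a2 change is where a straight line through its changes meets 0 on the Col1a2 axis. No culture was measured there, the lowest Col1a2 change being 0.38. The line can miss the cultures near that end. Ldhb has a fitted value of -0.51, yet it changed by 0.05 in 1467, 0.10 in 2949 and 0.09 in 5043. Its change was -0.09 in 1570 and -0.06 in 9584. At no Col1a2 change 2 of 31 genes were higher and 9 lower, against 5.61% and 4.58% of all genes (10.2% in either direction), with a median of -0.46. Upper glycolysis made up most of the lower group: Pfkm (-1.34 ± 0.18, adjusted p = 0.00117), Pfkp (-1.03 ± 0.22, 0.00818), Aldoa (-0.72 ± 0.17, 0.0142), Aldoc (-1.63 ± 0.38, 0.0136) and Tpi1 (-0.80 ± 0.24, 0.0410) were called, 5 of its 6 measured genes. Hk1 (-0.78 ± 0.21, 0.0268), Pgk1 (-0.74 ± 0.18, 0.0180), Pdk1 (-0.68 ± 0.19, 0.0312) and Pdk3 (-0.65 ± 0.19, 0.0413) were the others. Hk1 had a mean change above 0 and a fitted value below it. Pgd (1.17 ± 0.31, 0.0268) and Tigar (1.14 ± 0.21, 0.00486) were higher. Eno2 (-0.56 ± 0.31, 0.2999), Ldhb (-0.51 ± 0.23, 0.193) and Hif1a (0.07 ± 0.21, 0.902), which rose over all cultures, had no call there. The risers Hk3 (0.22 ± 0.16, 0.475) and Taldo1 (0.32 ± 0.11, 0.0898) had none either. Of the genes that fell, Slc16a1 (-0.19 ± 0.17, 0.560), Tkt (0.01 ± 0.14, 0.975) and Ldha (-0.30 ± 0.19, 0.381) had no call there. The same held for Pdha1 (-0.27 ± 0.11, 0.145), Pdhb (0.01 ± 0.10, 0.969) and Eno3 (-0.01 ± 0.26, 0.992).

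**Figure D5:**
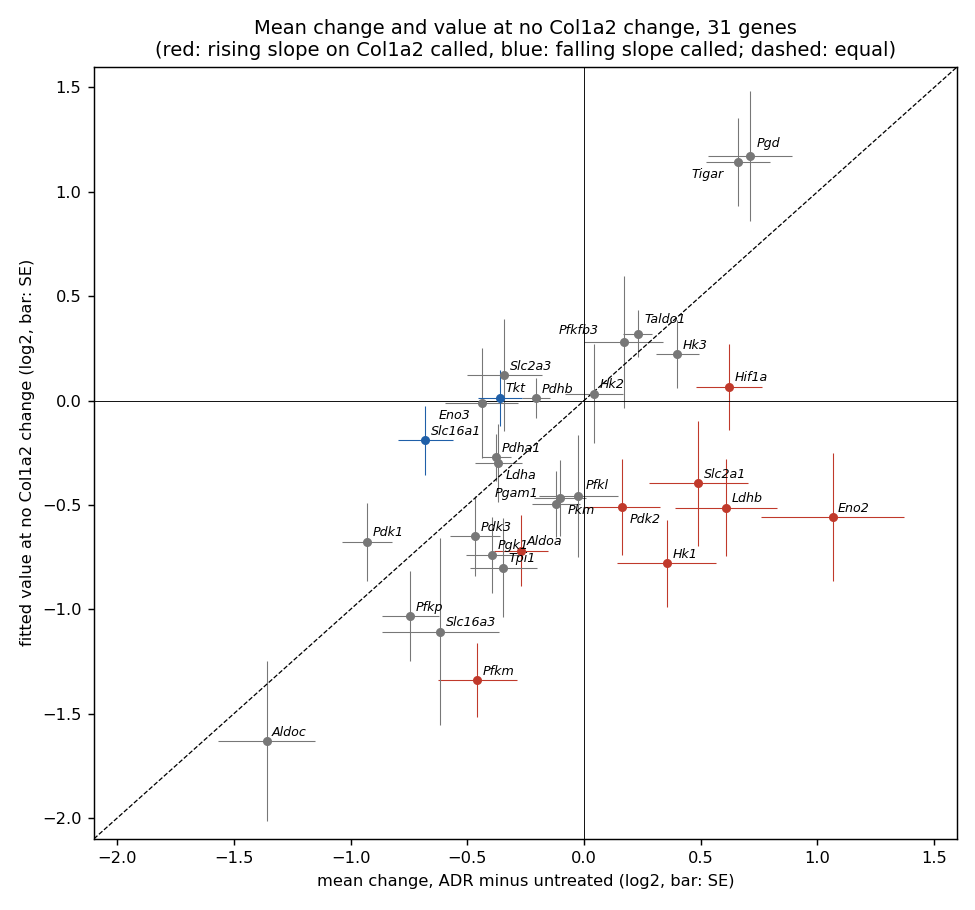
Mean change of the 31 genes (log2, horizontal) against the fitted value at no Col1a2 change (log2, vertical), each with its SE; red and blue mark rising and falling slopes on Col1a2, and the dashed line marks equal values. Hk1, Ldhb and Eno2 lie far below the line, Pgd and Tigar above it, and Pdk1 at -0.93 and -0.68.

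Of these values those of Pfkm, Pfkp and Tigar held without each of the 14 lymphomas. Lymphoma 1467, with the lowest Col1a2 change, mattered most: without it 3 genes were lower rather than 9, and Hk1 (adjusted p = 0.128), Aldoa (0.0691), Aldoc (0.0568), Tpi1 (0.122), Pgk1 (0.0535), Pdk3 (0.112) and Pgd (0.0784) lost the call. Without 9584, 5 genes were lower, and without 403, 11. Leaving out 1467, 2949, 403 or 5043 left 1 gene higher. Tpi1 kept its call only without 2581, 2949, 403 or 5766, and Pdk3 only without 1570, 2581, 3769, 5043 or 9583 (adjusted p otherwise up to 0.122 and 0.128). Pdk1 lost it without any one of 1570, 2949, 5043, 6054 and 9584 (adjusted p up to 0.0737), Pgd without any one of 1467, 2949, 403 and 5043 (up to 0.0826), and Hk1 also without 9584 (0.0575). With the probe sets of largest variance Tpi1 (adjusted p = 0.0929), Pdk3 (0.0620) and Pgk1 (-0.46, adjusted p = 0.0867) lost the call, and with the fibroblast marker change in place of Col1a2 Hk1 did (-0.60, adjusted p = 0.0798). With the macrophage marker change as a further covariate 0 of the 31 genes were called in either direction by limma (15 at an unadjusted p under 0.05, and 21 genes, or 0.115%, called of all). Pfkm stood at -1.23 ± 0.26 (adjusted p = 0.0581) and Aldoc at -1.97 ± 0.54 (adjusted p = 0.108), against SEs of 0.18 and 0.38 with Col1a2 alone. That fit was also read below the lowest macrophage marker change, 0.41 in lymphoma 2949. The part of macrophages in these values was not tested.

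The labels describe 11 lymphomas as samples of an earlier series, and 5043, 9583 and 9584 as not. No difference between the 11 and the 3 was called for the 31 genes (limma, 3 at an unadjusted p under 0.05, smallest adjusted p = 0.864), against 1 gene, or 0.00550%, of all. Within the 11, 7 genes were higher and 9 lower after ADR, and within the 3, 0 and 0 (limma, 14 at an unadjusted p under 0.05, and 1 gene called of all). The shares of all genes called within the 11 were not counted. Mean changes of Pdk1 were -0.93 in the 11 and -0.94 in the 3, those of Aldoc -1.33 and -1.48, and those of Pgd 0.68 and 0.81. Hk1 had 0.56 and -0.41, Pdk2 0.37 and -0.58, and Eno2 1.28 and 0.26, and the Col1a2 changes of the 3 lymphomas were 0.92, 2.27 and 1.35.

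Lymphomas differed as a whole. The median change of the 31 genes ran from -0.54 in 9584 to 0.42 in 5560, and the number of genes higher after ADR from 5 in 9584 to 20 in 5766. Lymphoma 1570 had the lowest change of 8 genes, namely Aldoa, Tpi1, Pgk1, Pgam1, Pkm, Ldha, Ldhb and Slc16a3. Lymphoma 5560 had the highest of 7, namely Pfkl, Aldoa, Tpi1, Pgk1, Pgam1, Pkm and Pdk2. The changes of neighbouring glycolytic steps were thus lowest together in 1 lymphoma and highest together in another. The untreated array of 5560 was the lowest untreated array for Pfkl (7.95), Tpi1 (11.48), Pgk1 (12.54), Pgam1 (11.23) and Pkm (11.60). Its ADR values for these genes, in the same order, were 9.14, 11.96, 12.76, 11.87 and 12.46. The ADR medians were 9.21, 11.94, 12.91, 11.77 and 12.44. The part of RNA quality in 1570 was not tested.

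Other genes of the same routes, from a list chosen with earlier results of these data known, were counted in the same fit. Of 65 measured, 7 rose (10.8%) and 10 fell (15.4%), with a median change of -0.04. These shares were below and near those of all genes (15.3% and 13.4%), so the genes named next are values and no result about the list. Of 6 other glucose transporters 2 rose, the transporter Slc2a6 by 0.44 ± 0.11 (adjusted p = 0.00480) and Slc2a10 by 0.27 ± 0.07 (adjusted p = 0.00793). Of 16 other glycolytic and gluconeogenic enzymes, Pfkfb4 rose by 0.31 ± 0.10, and Pklr, Ldhc and Pgm2 fell, with changes of -0.28, -0.24 and -0.23. Of 9 other pentose phosphate genes 3 fell. Prps1, which makes the phosphoribosyl donor for nucleotides, was lower in 14 of 14 lymphomas at -0.97 ± 0.10 (adjusted p = 5.92e-06), with levels of 9.52 to 10.34 (median 10.10) and 8.30 to 9.59 (median 9.08). The isomerase Rpia fell by 0.44 ± 0.11 and the lactonase Pgls fell by 0.40 ± 0.09.

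Of 10 other genes of pyruvate entry 1 rose and 2 fell. Pdk4, a kinase induced in starvation, rose by 1.42 ± 0.33 (adjusted p = 0.00410, higher in 13 of 14), with levels of 2.78 to 4.25 (median 3.16) in untreated and 2.97 to 8.08 (median 4.49) in ADR arrays. Pdk4 was dim, with every untreated array below the median of all values (4.74), so the size of its rise is uncertain. The Pdk4 change correlated with the Col1a2 change at r = 0.82, and the fitted value at no Col1a2 change was -0.27 (adjusted p = 0.739). The dehydrogenase component Pdhx fell by 0.41 ± 0.08 and the phosphatase Pdp2 fell by 0.45 ± 0.10. Of 11 regulators of glucose use 2 rose, the oxygen sensors Hif1an by 0.26 ± 0.07 and Egln2 by 0.23 ± 0.06, and none fell.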

How the data were processed

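Expression was measured on 28 arrays, 14 untreated and 14 ADR. The authors deposited log2 expression values for 45101 probe sets, made with RMA and Partek 6.5 per the submitters' processing notes; their build is not given in the sources used here. Of the probe sets 34945 were annotated to a single gene, and the brightest one per gene gave 18193 genes. Changes were tested with limma 3.58.1 (R 4.3.3) with lymphoma as a block, with Benjamini-Hochberg adjustment over all genes and a threshold of 0.05. The pairing comes from the labels, and deviations of paired arrays correlated at 0.27 to 0.61. Changes were also fitted on the Col1a2 change, with 100000 permutations for correlations. The methods were tested on simulated data.

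The genes, lists and pairs were chosen with earlier results of these data known. All listed genes are accounted for, with ranges for those past the threshold, up to 3 others per list, and promoters of up to 4 that hold a motif. Alternatives were the block, probe set choice, scaling, a dim-gene filter, lymphomas left out, the mean change of the fibroblast markers in place of Col1a2 and, chosen after seeing the data, the macrophage covariate. Replicates are separate lymphomas. Array number limits the precision.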

Additional observations from a re-analysis of the deposited data

How the results depend on the processing

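Counts over the 31 genes at an adjusted p under 0.05 depended on the settings as follows. Without the replicate block, 5 genes were higher and 7 lower (7 and 11 with it), and 3 other pathway genes were higher rather than 7, while a random block gave 7 and 11, with Pfkm called and Eno3 not. The calls of Hk3, Pfkp, Pgk1, Eno3, Ldhb and Pdhb were those lost without the block. Within the other 3 lymphomas 0 were higher and 0 lower, also for other pathway genes, and the Pdhb change was 0.0304. Within the 11 of the earlier series, 6 other pathway genes were lower (10 over all), and at no Col1a2 change 1 gene was higher and 3 lower (2 and 9 over all), with 0 falling slopes (2 over all). Without 403 and 5560, 1 gene was higher at no Col1a2 change, 4 had a rising slope (8 over all) and 1 a falling one. The probe set of largest variance left 1 falling slope, 6 rising slopes and 6 genes lower at no Col1a2 change, the fibroblast covariate 7 rising slopes and 8 genes lower, and the macrophage covariate 0 and 0 calls at no Col1a2 change. With 1 lymphoma left out at a time, 6 to 8 genes were higher and 10 to 14 lower, 6 to 8 and 6 to 10 of the other pathway genes, 1 to 3 and 3 to 11 at no Col1a2 change, 4 to 9 rising and 1 to 3 falling slopes, and 4 to 7 unequal pairs. Centring the arrays moved the median of all genes to -0.02 and quantile normalization to -0.01. Signal over background limits Pdk2, below the median of all values in both groups, and Eno2 and Pdk4 in untreated arrays.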
